A study of Mus musculus with 4 samples.

Results

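Cytosolic ribosomal proteins are the protein parts of the ribosome that reads messenger RNA outside the mitochondria. Their genes were taken as those whose RefSeq symbol follows the pattern Rpl or Rps, an optional p and a number, with at most 1 closing letter a, x or l, so that S6 kinases were left out. Of 82 matching symbols, 2 belong to pseudogenes (Rpl6l and Rps4l) and were left out. This gave 80 genes of 20637 named genes on the arrays, 50 of the large and 30 of the small subunit, and no measured value entered the choice. The rule misses core ribosomal proteins with other symbols, of which Rpsa, Rps3a1 and Fau are described separately.

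The arrays measured dendritic cells, the antigen-presenting cells that prime T cells, sorted by flow cytometry from the lamina propria of the mouse colon. All mice were C57BL/6J. Groups were wild-type (WT) mice in specific pathogen-free (SPF) housing, CD300a deficient (KO) mice in SPF housing, WT mice raised germ-free (GF) and KO mice raised GF, with 1 array each and cells of 5 mice per condition. CD300a is a receptor of myeloid cells that recognises phosphatidylserine exposed by dying cells and dampens activation. The SPF mice are labelled female and the GF mice male, and the sources used here give no age, allele or sort gate. The SPF arrays shared slide 1 and its scan, and the GF arrays shared slide 2 and its scan. Slide, scan and labelled sex therefore cannot be told apart from housing. Each genotype comparison lies within 1 slide, though the arrays of a pair differed in sex-linked readings given below. With 1 array per group no difference has a replicate check, and none is given a test or a p-value.

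Some readings bear on the labels. The only Cd300a probe read 7.88 on the WT SPF, 7.91 on the KO SPF, 7.60 on the WT GF and 8.05 on the KO GF array, so it was not lower on the KO arrays. The sources used here do not place that probe relative to the deleted part, and the arrays are therefore called KO-labelled. Xist, the RNA that coats the silenced X chromosome in females, read 4.87 on the WT SPF and 5.45 on the KO-labelled SPF array. It read 3.62 on the KO-labelled GF array, whose mice are labelled male, and did not exceed background on the WT GF array. The Y-linked gene Ddx3y read 2.07 on the WT GF and 0.59 on the KO-labelled GF array and did not exceed background on the SPF arrays. Eif2s3y, also Y-linked, was above background on the GF arrays (0.31 and -0.59) and on the KO-labelled SPF array (-2.56), whose mice are labelled female. The GF pair thus differed in Xist and Ddx3y as well as in genotype label, and the part of sex in its differences was not tested. Each comparison with the KO-labelled GF array rests on that 1 array. Of 10 dendritic cell markers, 9 or 10 were above background on each array, among them Itgax, Flt3, H2-Ab1 and Cd74 on all 4. Their summed level, in multiples of each array's 75th percentile signal, was 798, 806, 597 and 367 on the WT SPF, KO-labelled SPF, WT GF and KO-labelled GF arrays. H2-Ab1 and Cd74 weigh most in that sum, at 8.41 and 8.54 on the WT SPF array, where Sirpa came next at 5.57. Xcr1 was above background only on the SPF arrays. Macrophage markers summed to 528, 465, 474 and 252 in the same order. Granulocyte and mast cell markers summed to 318 on the WT SPF, 342 on the KO-labelled SPF and 261 on the KO-labelled GF array. That sum was lowest on the WT GF array. Csf3r weighs most in it, at 8.29 on the WT SPF array, where S100a9 came next at 1.36. The other markers did not share its order. S100a9 was not above background on the KO-labelled GF array, and Kit was lowest on the WT SPF array (0.30). Epithelial markers summed to 2.64, 3.604, 112 and 149 in the same order and B and plasma cell markers to 22.1, 99.7, 2.37 and 1.58. The share of each cell type was not tested.

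Each ribosome has a small subunit, which decodes the messenger RNA, and a large subunit, which forms the peptide bond. Ribosomal protein genes are transcribed in nearly every cell and are made in matched amounts, and growing or activated immune cells need more of them. Their messenger RNAs typically begin with a C followed by a run of pyrimidines, the 5′ terminal oligopyrimidine (TOP) motif, through which the kinase mTOR and the RNA-binding protein LARP1 control their translation together with that of elongation factors.

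The start of the annotated transcript shows what these genes share in sequence. RefSeq promoter windows of GRCm38.p6, from 250 bases before to 50 bases after the start, were held for 60 of the 80 genes. A run of at least 7 C or T bases that begins with a C exactly at the annotated start was found in 11 of 60 genes (18.3%), 6 of the large and 5 of the small subunit, against 1.29% of 27025 genes. Allowing the run to begin within 10 bases on either side, 30 of 60 (50%) had one, against 14.1% of genes. The windows below show 30 bases centred on the start for 8 genes with the run, in capitals, and for Rps3, whose annotated start has no such run and which stood apart in the GF pair.
Rps6, at chr4:86857353-86857382 on the minus strand: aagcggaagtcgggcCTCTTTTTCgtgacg
Rpl35, at chr2:39005117-39005146 on the minus strand: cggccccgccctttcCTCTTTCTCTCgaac
Rpl28, at chr7:4792950-4792979 on the plus strand: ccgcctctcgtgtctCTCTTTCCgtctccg
Rpl35a, at chr16:33056467-33056496 on the plus strand: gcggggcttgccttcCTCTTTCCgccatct
Rpl38, at chr11:114668565-114668594 on the plus strand: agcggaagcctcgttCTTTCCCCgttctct
Rps18, at chr17:33955651-33955680 on the minus strand: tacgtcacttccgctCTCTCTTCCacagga
Rps15a, at chr7:118116133-118116162 on the minus strand: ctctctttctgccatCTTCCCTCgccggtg
Rps27, at chr3:90213634-90213663 on the minus strand: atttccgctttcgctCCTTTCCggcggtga
Rps3, at chr7:99483695-99483724 on the minus strand: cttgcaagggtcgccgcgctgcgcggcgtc

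Short motifs were also counted in the whole window on both strands. The ETS-type motif CCGGAAG lay in 24 of 60 genes (40.0%) against 9.93% of all genes, and TCTCGCGA in 10 (16.7%) against 1.13%. AAGATGGC, the core of the YY1 motif, lay in 5 (8.33%) against 3.19%, and the TATA box letters TATAAA in 7 (11.7%) against 15.7%. These are letter matches in a fixed window, and no binding was measured.

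Levels are on a log2 scale, from the background-subtracted signal, with the array's 75th percentile set to 0. The probe with the highest mean stood for a gene. Of the 80 genes, 77 were well above background on all 4 arrays, and 76 of these lay in the top 10% of named genes by mean level (the exception was Rps27l). Over the 77 genes the lowest, median and highest level were 1.90, 6.19 and 8.47 on the WT SPF array and 2.49, 6.39 and 8.57 on the KO-labelled SPF array. They were 2.62, 6.42 and 8.79 on the WT GF array and 1.88, 5.72 and 8.22 on the KO-labelled GF array. The median was thus lowest on the KO-labelled GF array and much alike on the other arrays. The 3 remaining genes are tissue-restricted copies. Rpl3l, the striated muscle copy of Rpl3, and Rpl39l, the germ cell copy of Rpl39, were not well above background on any array. Rpl10l, the testis copy of Rpl10, was above it on all but the KO-labelled SPF array, which put that array at least 1.17-fold below the WT SPF and at least 1.35-fold below the KO-labelled GF array. These readings of Rpl10l rest on 1 dim probe, and its other probe was not above background on any array.

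The first comparison set KO-labelled against WT cells within SPF housing. Ribosomal protein genes were slightly and evenly higher on the KO-labelled array, with a median difference of 0.18 (middle 50% of genes from 0.11 to 0.23, SD between genes 0.15) over 78 genes, those above background on 1 or both arrays of the pair. Of these 78, 74 were above 0 and 4 below, Rpl10l among them (5.13%), where 55.7% of all named genes were below 0. None was at least 2-fold higher, against 5.61% of all named genes, and none at least 2-fold lower, against 6.61%. The median was -0.06 over all named genes, 0.01 over the brightest quartile and 0.08 over the brightest 5% without the ribosomal protein genes. Repeated spots of a bright probe on 1 array had an SD of 0.063 to 0.070. For a difference between 2 arrays the largest of these comes to 0.10, which covers no spread between mice. Probes of the same gene had a pooled SD of 0.13 in this pair, over 49 genes.

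Single genes of this pair stayed close to the group. Rps27l, a p53-responsive copy of Rps27, read 1.90 on the WT and 2.49 on the KO-labelled array, the largest difference upward (0.58). Rps19, which is mutated in Diamond-Blackfan anaemia, read 3.57 and 4.10 (0.53). Both rest on 1 probe, and both lie above the rest of the group. Rps2 (0.42), Rps7 (0.41) and Rpl5 (0.37) followed. Rpl5 and Rpl11 carry the 5S ribosomal RNA and, when free, hold back Mdm2 and so stabilise p53, and Rpl11 did not share the difference, at 4.36 and 4.37. The lowest value among genes above background on both arrays was that of Rpl6, at 4.71 and 4.51 (-0.20), followed by Rpl13a (-0.04), the subunit of the inflammatory translation-silencing complex GAIT, and Rpl27a (-0.0040). The other probes of Rpl6 lay between -0.04 and 0.09, so its sign changes with the probe. The same holds for Rpl13a (other probes 0.12 and 0.07) and Rpl27a (0.19 and 0.18).

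By position in the ribosome the SPF differences were alike. The acidic stalk, which recruits the GTPases of elongation (Rplp0 0.17, Rplp1 0.27, Rplp2 0.18 and Rpl12 0.35), had a median of 0.23. Genes of the peptidyl transferase region and L1 stalk (Rpl3, Rpl8, Rpl10 and Rpl10a) had a median of 0.19, the 9 genes listed for the region of the exit tunnel 0.17, the 14 of the small subunit head 0.14 and the 15 of the small subunit body 0.20. The large subunit (0.18, SD 0.16, 48 genes) and the small subunit (0.18, SD 0.14, 30 genes) differed in their medians by -0.0045. With quantile scaling the median of all 78 genes was 0.06, with 48 genes above 0, and with cyclic loess it was 0.10 with 65 above 0.

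Under GF housing the same genotype comparison gave the opposite direction and a larger difference. Of 78 ribosomal protein genes 77 were lower on the KO-labelled array (98.7%, where 61% of all named genes were), with a median of -0.70 (middle 50% from -0.80 to -0.60, SD 0.21). Even so, none of the 78 was at least 2-fold lower, against 7.77% of all named genes, and none at least 2-fold higher, against 8.8%. The count of 0 lower became 28 with median scaling, 5 with the second brightest probe and 2 with the mean of probes. Shares of all named genes under these settings are not given, but with median scaling their median was -0.43. With the scaling used throughout, the median was -0.20 over all named genes, -0.41 over the brightest quartile and -0.26 over the brightest 5% without ribosomal protein genes. The middle 50% of the family thus lay below the median of the other bright genes.

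The genes at the lower end were close to a log2 difference of -1. Rpl3, which helps shape the peptidyl transferase centre, read 5.52 on the WT GF and 4.52 on the KO-labelled GF array (-0.9989). Rps6, the substrate of S6 kinase and a common readout of mTOR activity, read 5.87 and 4.87 (-0.9950), and its other probes gave -0.78 and -0.75. Rpl35a (-0.98), Rpl34 (-0.98) and Rpl6 (-0.96) came next. All 3 Rpl11 probes agreed, from -0.72 to -0.67. Rps19 read 3.21 and 2.27 (-0.94). Toward the other end, below Rps3, Rpl10l was at -0.09, Rpl36 at -0.31, Rps12 at -0.35 (its other probe -0.67) and Rpl13a at -0.45, though the other probes of Rpl13a gave -1.06 and -1.20.

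Rps3 was the 1 gene above 0. Its product sits at the messenger RNA entry channel and also takes part in DNA repair. Its brightest probe read 7.21, 7.35, 6.77 and 7.17 on the WT SPF, KO-labelled SPF, WT GF and KO-labelled GF arrays, a GF genotype difference of 0.40. Its second probe read 5.56, 5.70, 5.31 and 4.69, a difference of -0.62 in the middle of the group. The exception therefore belongs to 1 of 2 probes. Of all 159 ribosomal protein probes above background on the 4 arrays, 155 were below 0 in this pair and 4 above. Among the probes above 0 were single probes of Rpl6 (0.11) and Rpl21 (0.27), genes whose brighter probes were all below 0.

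The regions of the ribosome lay close together. The stalk had a GF median of -0.69 and Rpl5 with Rpl11 -0.66. The peptidyl transferase region and L1 stalk had -0.75, the exit tunnel region -0.64, the small subunit head -0.73 and the small subunit body -0.78. The large subunit median was -0.68 (SD 0.18) and that of the small subunit -0.75 (SD 0.25), a difference of 0.07 that was -0.07 with the second brightest probe. The 11 genes with the pyrimidine run at the annotated start had a median of -0.78 and the 47 measured genes whose window lacks it there -0.69. Among named genes outside the family the values were -0.29 for 165 genes with the run and -0.21 for 12239 without. For the genes whose windows are shown, the differences were -0.99 (Rps6), -0.98 (Rpl35a), -0.91 (Rps15a), -0.78 (Rpl38), -0.75 (Rps18), -0.68 (Rps27), -0.67 (Rpl28) and -0.64 (Rpl35).

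**Figure D1:**
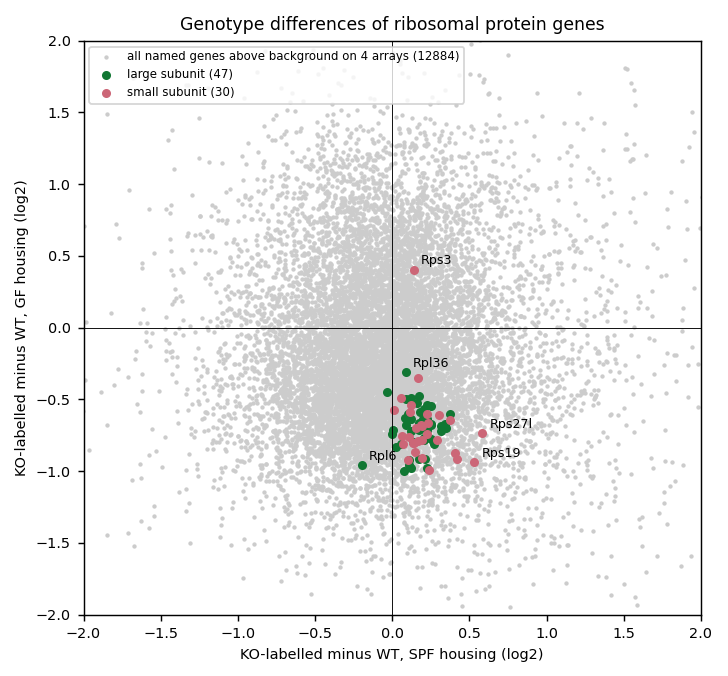
Genotype difference under SPF housing (x axis) against that under GF housing (y axis), KO-labelled minus WT in log2 units, for 47 large subunit genes, 30 small subunit genes and all 12884 named genes above background on the 4 arrays (grey, axes end at -2 and 2). The ribosomal protein genes form a compact cloud around 0.18 and -0.70, with Rps3 (0.40 on the y axis) apart from it.

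The size of the GF difference depends on how the arrays are scaled, and its direction did not in any scaling run. The median was -0.32 with quantile scaling, -0.29 with cyclic loess, -0.41 with the deposited table and -0.93 with median scaling, with 76, 75, 76 and 77 of 78 genes below 0. In the same 4 scalings the brightest 5% of other genes had medians of -0.05, 0.04, -0.09 and -0.61. The dendritic cell markers of this pair had a median of -0.75 over 9 measured genes. Of these, 8 were below 0 (Itgax -1.04, Cd74 -0.73 and H2-Ab1 -0.68 among them) and 1, Zbtb46, was above it (0.29). Macrophage markers had a median of -0.90 over 6 genes and epithelial markers 0.64 over 8. In bulk RNA fewer cells of a type and less RNA per cell cannot be told apart, and the part of the cell mixture in the ribosomal protein difference was not tested.

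Both genotype differences can be read gene by gene. Over the 77 genes above background on all arrays, the SPF genotype difference exceeded the GF one by a median of 0.88 (middle 50% from 0.77 to 1.01), from -0.26 for Rps3 to 1.47 for Rps19. For 73 genes the KO-labelled array was higher in the SPF pair and lower in the GF pair, for 3 it was lower in both, and for 1 (Rps3) higher in both. The highest of the 4 arrays was the KO-labelled SPF array for 43 genes and the WT GF array for 34. The lowest was the KO-labelled GF array for 68 genes, the WT SPF array for 8 and the WT GF array for 1. Shares of all named genes with these patterns are not given, so the counts describe the family only. Of all named genes, 55.7% were below 0 in the SPF pair and 61% in the GF pair. Across the 77 genes the SPF and GF genotype differences, which share no array, had a Pearson correlation of -0.08 and a Spearman correlation of -0.05, both close to 0. These points are genes measured by the same probes on both slides and are not independent replicates.

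Between housings, WT cells showed no common direction of the family. The median GF minus SPF difference was 0.09 over 78 genes (middle 50% from -0.29 to 0.41, SD 0.46), with 48 genes above 0 and 30 below (38.5%, where 43.6% of all named genes were below 0). At least 2-fold higher on the GF array was 1 gene (1.28%), against 17.5% of all named genes, and 0 were 2-fold lower, against 9.44%. Medians were 0.13 over all named genes, 0.02 over the brightest quartile and -0.11 over the brightest 5% without the family. The single gene past 2-fold was Rps7, another ribosomal protein that binds Mdm2, at 4.28 on the WT SPF and 5.56 on the WT GF array (1.28, 1 probe). Rps26 (0.97), at the messenger RNA exit channel, Rps2 (0.93), Rpl17 (0.91) and Rpl23a (0.87) followed. Lowest were Rpl11 (-0.77), Rps27a (-0.67), made as a fusion with ubiquitin, Rps20 (-0.64), Rpl9 (-0.60) and Rpl23 (-0.59). The other probes of Rpl11 gave -1.11 and -1.18, and that of Rpl9 gave -0.12. Those of Rps27a gave -0.08 and -0.76, the latter above background on 3 arrays. Those of Rpl23 gave 0.06 and 0.34, so its sign changes with the probe. The large and small subunit medians were both 0.09, 0.0022 apart, but large minus small was -0.15 with quantile scaling, -0.13 with the mean of probes and -0.14 with the second brightest probe.

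In KO-labelled cells most of the family was lower on the GF array. The median GF minus SPF difference was -0.79 (middle 50% from -1.12 to -0.41, SD 0.48), and 73 of 78 genes were below 0 (93.6%, where 48% of all named genes were). At least 2-fold lower were 28 genes (35.9%), 18 of the large and 10 of the small subunit, against 15.4% of all named genes, and 0 were 2-fold higher, against 21.6%. All named genes had a median of 0.05, the brightest quartile -0.30 and the brightest 5% without the family -0.33, of which 20.4% were at least 2-fold lower. Rps19 was lowest, at 4.10 on the KO-labelled SPF and 2.27 on the KO-labelled GF array (-1.83). Rps27a read 7.06 and 5.38 (-1.68), Rpl11 4.37 and 2.88 (-1.49), Rpl23 7.78 and 6.40 (-1.38) and Rps20 7.19 and 5.89 (-1.31). All 3 probes of Rpl11 lay between -1.79 and -1.49. At the upper end were Rps29 (0.13), Rps26 (0.09), Rpl17 (0.07), Rps7 (0.0030) and Rpl23a (-0.02), of which all but Rps29 were also among the 5 highest in WT cells. The other probes of Rps29 gave -0.52 and -0.66, so its sign changes with the probe.

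By region, the KO-labelled housing medians ran from -1.19 for the peptidyl transferase region and L1 stalk and -1.04 for Rpl5 with Rpl11 through -0.91 for the stalk, -0.90 for the small subunit head and -0.77 for the exit tunnel region to -0.64 for the small subunit body. In WT cells the same regions were at -0.21, -0.20, 0.05, -0.07, 0.11 and 0.30. The large and small subunit medians were -0.77 and -0.83, with SDs of 0.47 and 0.50 between genes. Their order depends on the probe, since large minus small was 0.05 with the brightest probe, -0.20 with the mean of probes and -0.29 with the second brightest. The count of 28 genes at least 2-fold lower depends strongly on scaling, since it was 3 with quantile scaling (median -0.30), 3 with cyclic loess (-0.32), 4 with the deposited table (-0.45) and 44 with median scaling (-1.07). In these scalings all named genes had medians of 0.08, 0.11, 0.39 and -0.23. The brightest 5% of other genes had medians of 0.09, 0.18, -0.01 and -0.64, above the family in each case. Shares of all named genes at least 2-fold lower in these scalings are not given. Dendritic cell markers had a median of -1.16 over 10 genes in this comparison, B and plasma cell markers -4.18 over 6 and epithelial markers 4.98 over 8. In WT cells the corresponding medians were -0.28, -2.56 and 4.62, and the part of these cells in either housing result was not tested.

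**Figure D2:**
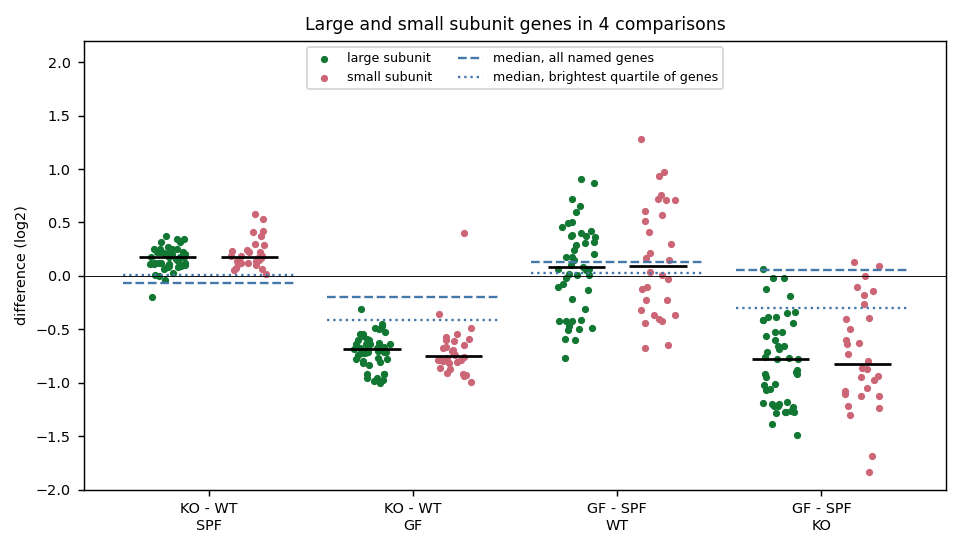
Difference of each gene above background on all 4 arrays (points, log2) in the 4 comparisons, large subunit in green and small subunit in red, with the subunit median as a black bar and the medians of all named genes (dashed) and of their brightest quartile (dotted). The points of both subunits overlap in each comparison, tightly around 0.18 and -0.7 between genotypes and widely spread between housings.

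The wide spread between housings was seen between probes of a gene as well as between genes. Across the 77 genes the WT and KO-labelled housing differences had a Pearson correlation of 0.86 and a Spearman correlation of 0.87. The same brightest probes were thus high or low in both. The 2 differences share no array but compare the same slides and scans, which cannot be told apart from housing. Among the 49 genes with at least 2 probes above background on all arrays, probes of the same gene differed as much as genes did. The pooled SD between probes of a gene was 0.40 in WT and 0.47 in KO-labelled cells, and the SD between genes 0.45 and 0.45. The brightest probe and the mean of the other probes of the same gene correlated at only 0.25 and 0.17. For the genotype comparisons the SD between probes was 0.13 under SPF and 0.25 under GF housing, that between genes 0.11 and 0.22, and the correlations were 0.05 and 0.14. All 4 correlations are over 49 genes of the same arrays and describe these probes.

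Rpl17, whose product lines the exit tunnel, shows this most plainly with its 7 probes. Between housings in WT cells they ran from -0.89 to 1.40, and in KO-labelled cells from -1.70 to 0.81. In the GF genotype comparison the same 7 probes ran only from -0.90 to -0.55, all below 0. Rps24 gave a similar picture, with WT housing differences of -0.32, 1.03 and 1.505 and GF genotype differences of -0.61, -0.72 and -0.82. Its probes are annotated to different transcripts, those of Rpl17 to the same one, and a difference between transcripts was not tested. Probes of a gene had both signs for 27 of 49 genes in the WT housing comparison, for 5 in the KO-labelled one, for 4 between genotypes under GF and for 9 under SPF housing. The 3 probes of Rps6 shared their sign in every comparison, lying between 0.04 and 0.24, between -0.99 and -0.75, between 0.10 and 0.61 and between -0.69 and -0.43 in the order of the comparisons above. Whether a probe also binds transcripts of the many processed pseudogenes of this family was not tested.

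**Figure D3:**
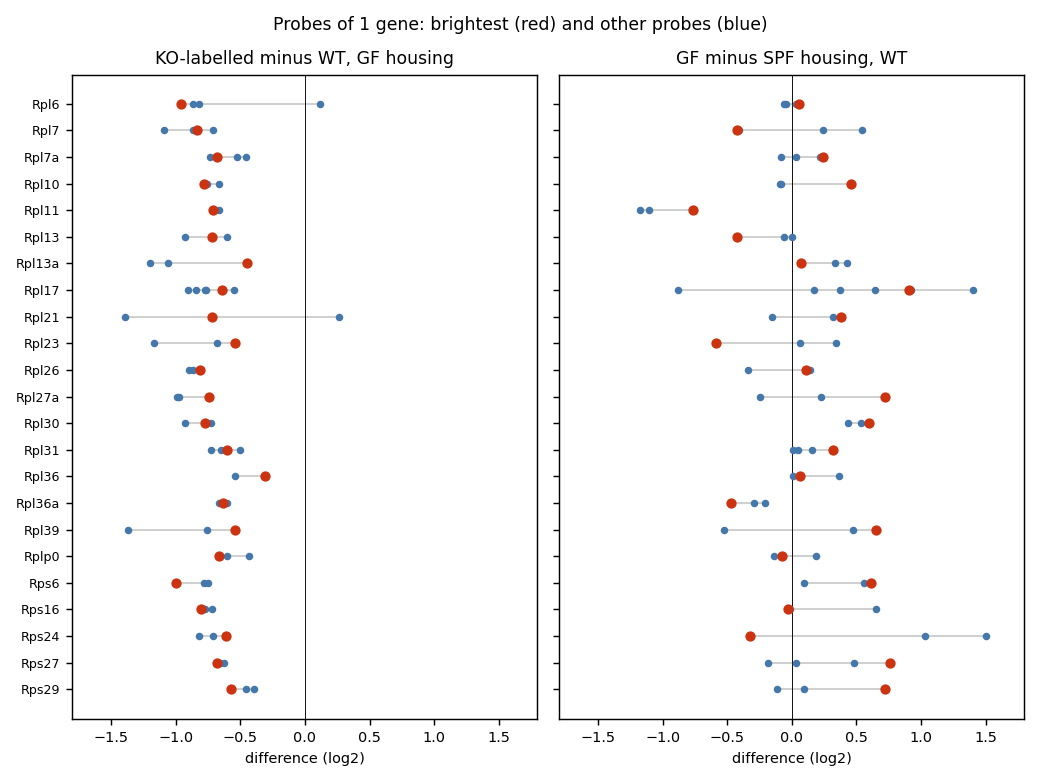
Differences (x axis, log2) of every probe above background on all 4 arrays for 23 ribosomal protein genes with at least 3 such probes, brightest probe in red and others in blue, for the GF genotype comparison (left) and the WT housing comparison (right). Probes of a gene lie together and below 0 on the left for most genes, and spread to both sides of 0 on the right for many, Rpl17 from -0.89 to 1.40.

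Among core ribosomal proteins outside the symbol pattern, Rpsa, Rps3a1 and Fau were examined one by one. Rpsa, of the small subunit and also a laminin-binding protein, read 6.49, 6.56, 5.53 and 4.50 on the WT SPF, KO-labelled SPF, WT GF and KO-labelled GF arrays. It was therefore lower on the GF arrays in both genotypes (-0.96 and -2.06). Rps3a1 read 6.44, 6.74, 6.84 and 5.96. Fau, a fusion of Rps30 with a ubiquitin-like protein, read 9.37, 9.26, 8.84 and 8.12. The KO-labelled GF array was lowest for each of these 3. Among paralogs outside the pattern, Rpl22l1, the copy that stands in for the T cell development factor Rpl22, differed by 0.26, -0.51, -0.67 and -1.45. Rpl22 itself was at 0.08, -0.63, -0.49 and -1.20, and Rpl38, which is needed for translation of Hox messenger RNAs in the embryo, at 0.25, -0.78, 0.0083 and -1.02.

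Other genes of the translation machinery give the background of the family. In the order SPF genotype, GF genotype, WT housing and KO-labelled housing, the 10 genes of elongation and other TOP messenger RNAs had medians of 0.15, -0.62, -0.06 and -0.90. All 10 were above 0 in the SPF and below 0 in the GF genotype comparison, where 55.7% and 61% of all named genes were below 0. At least 2-fold lower in the latter was 1 (Nap1l1 -1.10), or 10%, near the 7.77% of all named genes. The elongation factor genes Eef1a1 (-0.52) and Eef2 (-0.60) and the nucleolar chaperone gene Npm1 (-0.97) lay in the same range there. Initiation factors (28 or 29 measured) had medians of 0.12, -0.62, -0.03 and -0.68, with 27 of 29 below 0 in the GF genotype comparison and Eif4g1 (0.26) the highest.

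The 77 measured mitochondrial ribosomal protein genes differed from the cytosolic ones in direction under SPF housing. Their medians were -0.20, -0.48, 0.17 and -0.11. The share below 0 was 72.7%, 90.9%, 35.1% and 54.5%, against 55.7%, 61%, 43.6% and 48% of all named genes. Ribosome biogenesis genes (42) were at -0.01, -0.55, 0.07 and -0.26 and RNA polymerase I genes (18) at -0.22, -0.70, -0.13 and -0.56. Regulators of the family, from mTOR, LARP1 and S6 kinase to MYC and its partners, were at -0.24, -0.12, -0.44 and -0.62. Of the regulators, Mtor (-0.03) and Larp1 (-0.03) were nearly level between the GF arrays. Eif4ebp1, the mTOR-controlled brake on cap binding, was lower there (-1.08), as was Rheb, the activator of mTOR (-0.82). Myc read 1.29, 1.13, 0.57 and 0.14 on the WT SPF, KO-labelled SPF, WT GF and KO-labelled GF arrays, lower on the GF arrays in both genotypes. None of these differences was tested.

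**Figure D4:**
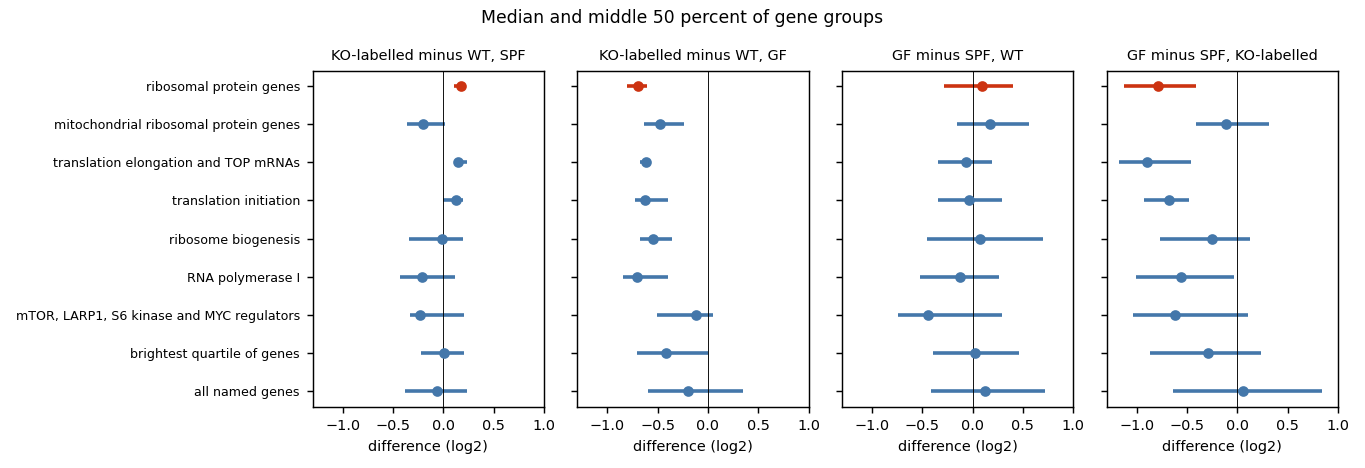
Median (point) and middle 50% (bar) of the log2 differences of ribosomal protein genes (red) and of other gene groups (blue), 1 panel per comparison, with 0 as a vertical line. Ribosomal protein genes have the narrowest bars or nearly so between genotypes, at 0.18 and -0.70. Every group shown has a negative median in the GF genotype panel, and every group except all named genes (0.05) in the KO-labelled housing panel.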

How the data were processed

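Total RNA of sorted cells was amplified to cDNA with the Ovation Pico WTA kit and labelled with Cy3, per the labels' protocols. Per the file headers, the one-colour Agilent arrays have a design on build mm9 and were scanned into values by Feature Extraction 10.10.1.1 (protocol GE1_1010_Sep10). The deposited scanner files hold for each spot an intensity, the processed signal, from which the software took the background and which is not scaled between arrays. The deposited table of the series was that signal times 8.30, 8.24, 7.08 and 7.96 (WT SPF, KO SPF, WT GF, KO GF), so it is linear and its genes are uncentred; column medians were 237.2, 216.3, 235.7 and 331.4, and the rule behind the factors is unknown.

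Here, 3671 control spots and spots marked as outliers (144 to 215 per array) were left out, the remaining spots of a probe were averaged, 84 probes without a usable spot on some array were dropped, and the 75th percentile of log2 signal (signals of 158 to 206) was subtracted. Names came from RefSeq accessions of GRCm38.p6 for 27191 probes; 28406 kept probes stayed unnamed, 19 of them because both slides' accessions gave different genes. The brightest probe by mean level stood for a gene. A probe was above background where the scanner flag said so for as many spots as not or more. Differences cover genes above background on 1 or both arrays of a pair. Precision is limited by 1 array per group; repeated spots on an array had a pooled SD of 0.17 in all. A limma model was left out, since its only residual degree of freedom would be the genotype by housing interaction.

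The 5 highest and 5 lowest genes per comparison above background on both arrays are named, with genes below background, genes whose probes differ in sign, paralogs and genes of known role. Some items covered by this rule are not reported here. Genes and the 22 lists were chosen with earlier results of these data known. Scaling, background correction (normexp with offset 50 on the median signals, as the files hold no mean signal), flags, probe choice, dim genes and the gene list were varied. The scripts were checked on simulated data. Software was R 4.3.3, limma 3.58.1, data.table version 1.17.8, Python 3.11.15, pandas 2.3.3, numpy 2.4.6, scipy 1.17.1 and matplotlib 3.10.9.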

Additional observations from a re-analysis of the deposited data

Results flagged for a closer look

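The ribosomal protein genes moved in opposite directions in the 2 housings. Their median genotype difference, KO-labelled minus WT, was 0.175 in the SPF pair and -0.701 in the GF pair. Their contrast was not tested, because each group has 1 array. Between housings, GF minus SPF, the median was 0.0939 in WT and -0.785 in KO-labelled cells, also untested. All 4 arrays enter both statements, so they are the same contrast read in 2 ways.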

How the results depend on the processing

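Of 240 values (20 results under 12 alternatives), 197 stayed within the limits set here, which for a median is a log2 difference of 0.10 from repeated spots and for a count 1.5 times. 43 moved. The 4 medians kept their direction in every alternative. The differences between large and small subunit, each within 0.10 of 0 as reported, did not. The SPF genotype median of 0.18 was 0.056 with quantile scaling. The GF genotype median of -0.70 was -0.32 with quantile scaling, -0.29 with cyclic loess, -0.93 with median scaling and -0.41 with the deposited table. Its count of 0 genes at least 2-fold lower became 28 with median scaling, 2 with the mean of probes, 5 with the second brightest probe and 1 with the widened list (Rpsa). The WT housing median of 0.09 was 0.20 with quantile scaling. Its count of 1 gene at least 2-fold higher became 2 with quantile scaling, 3 with normexp and 2 with the second probe, and its count of 0 lower became 1 with the mean of probes and 1 with the second probe. The KO-labelled housing median of -0.79 was -0.30 with quantile scaling, -0.32 with cyclic loess, -1.07 with median scaling and -0.45 with the deposited table. Its count of 28 lower became 3, 3, 44 and 4 in these scalings and 14 with the second probe, over the genes that have one, and its count of 0 higher became 1 with the deposited table. For none of the changed counts is the share of all named genes under the same setting given, so they describe the family only. Large minus small subunit medians, as reported 0.07, 0.0022 and 0.05, turned negative, to -0.073 (GF genotype, second probe), -0.15, -0.13 and -0.14 (WT housing with quantile scaling, mean of probes and second probe) and -0.20 and -0.29 (KO-labelled housing with mean of probes and second probe). The cause was not tested in each case. Relative to all named genes, the GF genotype median ranged from -0.55 to -0.15, the KO-labelled housing median from -0.88 to -0.38, the SPF genotype median from 0.13 to 0.24, and the WT housing median from -0.05 to 0.14, crossing 0. No spot was saturated. No paired analysis was possible because each group has 1 array, and no replicate could be left out.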
